A study of Schmidtea mediterranea with 32 samples.

Results

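The comparison of nhr-1 RNAi with control RNAi after 6 feedings was made on 7 of the 32 libraries of the series. They are the 4 nhr-1 RNAi libraries titled 1, s1, s2 and s3 at 6 feedings and the 3 control RNAi libraries (labelled UNC) titled 1, s1 and s2 at 6 feedings. A further control library, labelled 7 feedings, was left out. Every library holds poly(A)-selected RNA of whole animals of Schmidtea mediterranea, a planarian flatworm, of the sexual S2F2 biotype. The labels do not give the age of the animals, how many animals entered a library or whether the libraries came from separate cultures. The p-values below therefore measure the spread between libraries, part of which may be technical. The series also sampled both treatments at 4, 8 and 11 feedings, with 4 libraries in each of these 6 groups.

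Sexual planarians are hermaphrodites that carry testes, ovaries, yolk glands and a copulatory apparatus, whereas asexual strains of the species reproduce by fission and lack mature reproductive organs. Nuclear hormone receptors are a family of transcription factors, many of which are switched by small lipophilic ligands. The planarian nhr-1 is known as a gene needed for the development and upkeep of the reproductive organs. In RNAi by feeding, animals eat double-stranded RNA, and repeated meals prolong the knock-down. The comparison asks which transcripts the knock-down had altered at the second of the 4 sampled times.

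Reads were counted on 177783 reference sequences, of which 93783 are contigs with the prefix SmedSXL, read here, from the prefix, as a transcript assembly of sexual animals. A contig is an assembled stretch of transcript, and the files pair none with a gene name. Many reads were also counted on a second assembly, SmedASXL, read as that of asexual animals, so the values below refer to the SmedSXL contigs unless stated. These contigs held 5.81 to 9.13 M (M, mega) counts per library in the nhr-1 RNAi group and 7.58 to 7.87 M in the control group. The 23754 contigs that passed the filter on low counts held 99.14% of them. Because no identifier is paired with nhr-1, its level could not be used to check the labels and was not analysed here.

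The 7 libraries differed in composition in a way that crossed the treatment. The most abundant contig, SmedSXL_088910 (1006 bases), took 11%, 19%, 18.4% and 22.8% of the counts in nhr-1 RNAi libraries 1, s1, s2 and s3, against 7.7%, 25.9% and 11.2% in control libraries 1, s1 and s2. The groups overlapped, with a mean of 17.8% ± 4.90 (SD, n = 4) in the knock-down and 14.9% ± 9.65 (SD, n = 3) in the control, and an exact permutation test (two-sided) gave p = 0.629, or 0.971 adjusted over 2 tests. The smallest p that 4 against 3 libraries allow is 0.0571. The number of contigs at 1 CPM or more (CPM, counts per M of a library's TMM-scaled total) had a knock-down mean of 20685 ± 1205 (SD, n = 4) and a control mean of 20683 ± 1845 (SD, n = 3; exact permutation p = 0.971, 0.971 adjusted). Its values ran from 19676 to 22383 in knock-down and from 18555 to 21829 in control libraries. In a principal component analysis of log2 CPM over the 7 libraries, the first component carried 47.4% of the variance and placed the knock-down libraries between 7.09 and 115 and the controls between -133 and -29.4. The second component carried 34.5% and set nhr-1 RNAi libraries s1 and s3 and control library s1, at -53.0, -68.9 and -59.5, apart from control libraries 1 and s2, at 99.2 and 80.9. Library 1 of the knock-down lay at 12.6 and s2 at -11.2.

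At 6 feedings most called changes were losses. By edgeR's quasi-likelihood test with Benjamini-Hochberg adjustment, 3156 of 23754 contigs (13.3%) were lower under nhr-1 RNAi and 99 (0.417%) were higher at an adjusted p under 0.05, 13.7% in all. Without adjustment, 20.2% had a p under 0.05. The test took its estimate of the spread from 31 libraries in 8 groups, most of them at other times. With the 7 libraries at 6 feedings alone, 2807 contigs were lower and 39 higher. DESeq2 split its calls into 3110 lower and 552 higher contigs. Of the lower contigs, 3018 (95.6%) had all 4 knock-down libraries below all 3 controls, against 16.3% of all tested contigs. Of the higher contigs, 87 (87.9%) had all knock-down libraries above all controls, against 4.40% of all tested contigs. The contigs were called on these same 7 libraries, so the separation largely follows from the call and is no separate support. The median log2 fold change was -2.17 for the lower contigs, a level 4.50-fold below control, and 1.01 for the higher ones. Over all tested contigs it was 0.10, with quartiles of -0.37 and 0.35.

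**Figure D1:**
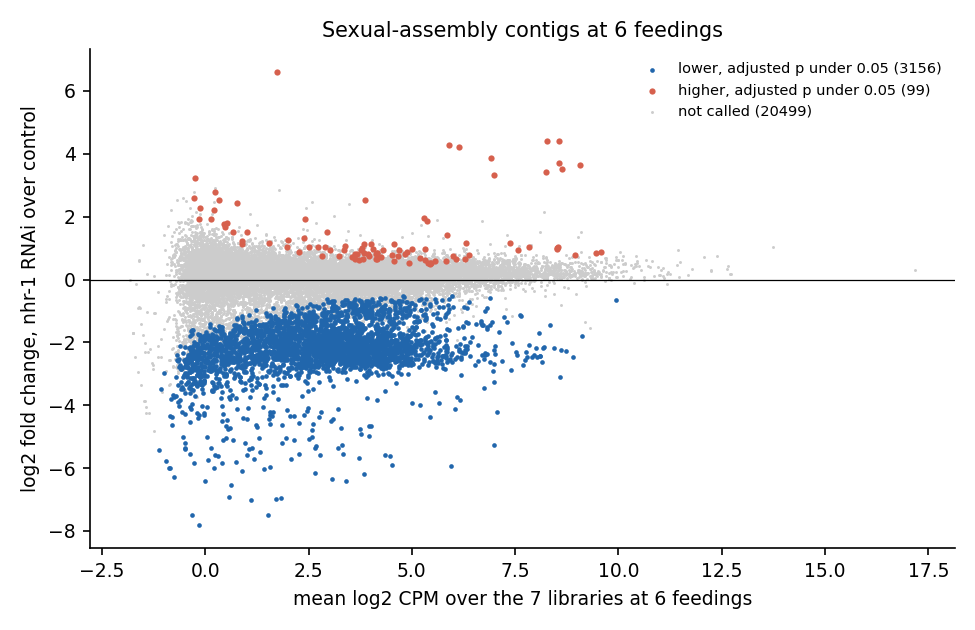
Each point is a SmedSXL contig, with its mean log2 CPM over the 7 libraries on the horizontal axis and the log2 fold change of nhr-1 RNAi over control at 6 feedings on the vertical axis. The 3156 lower contigs (blue) form a dense band around a log2 fold change of -2.17 with a sparse tail below it, and the 99 higher contigs (red) lie mostly near 1, with 12 at 3 or above.

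The called losses were mostly 2- to 8-fold. Small changes pass the test less often, so these classes describe the contigs called and not the sizes of all changes. Of the 3156 lower contigs, 1657 (52.5%) were 4- to 8-fold lower and 1041 (33.0%) 2- to 4-fold lower. Only 166 (5.26%) fell by less than 2-fold. A further 168 were 8- to 16-fold lower, and 124 (3.93%) were more than 16-fold lower. A test against a 2-fold change (edgeR's glmTreat, adjusted p under 0.05) called 1658 lower contigs (6.98% of those tested) and 10 higher ones (0.0421%). That count of lower contigs was 886 without nhr-1 RNAi library 1, 822 without control library 1 and 290 with the libraries named s alone.

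Few transcripts were lost altogether. In 7 of the lower contigs the 4 knock-down libraries together held 0 counts, against 18 to 99 counts in the 3 controls together. Taking 3 counts over the knock-down group as the limit that a count of 0 allows, these contigs were at least 6.94- to 38.2-fold lower, with a median bound of 10.8-fold. The bound covers counting error in the knock-down alone, not the spread between libraries or the error of the control counts. In all, 49 of the lower contigs held 3 or fewer knock-down counts. With the contigs at 0 set to their bound, the median log2 fold change of all lower contigs remained -2.17, and that of the 124 contigs more than 16-fold lower was -4.77 rather than -5.02.

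Together the lower contigs took a sizeable part of the normalized counts on tested SmedSXL contigs in the control libraries. They took 2.35%, 2.65%, 3.01% and 2.64% of the normalized counts in nhr-1 RNAi libraries 1, s1, s2 and s3, against 16.5%, 8.93% and 12.8% in control libraries 1, s1 and s2. The groups did not overlap, which the choice of the contigs fixes. The knock-down libraries lay within 1 percentage point of each other, while the controls spread over more than 7. In whole animals, fewer cells of a type and less RNA per cell cannot be told apart.

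For most other contigs the data could not bound the change tightly. Of the 20499 contigs that were not called, 6267 had a 95% confidence interval of the log2 fold change that lay between -1 and 1, which limits their change to less than 2-fold. For the others the interval reached past -1 or 1, so it sets no such limit on their change. The median standard error over all tested contigs was 0.46 on the log2 scale.

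The 2 contigs that lost most reads were SmedSXL_015218 and SmedSXL_088939, chosen by the largest fall in mean CPM among called contigs without overlap between the groups, so their lack of overlap is no finding. SmedSXL_015218 (368 bases) ranked 24th of all tested contigs by its mean level in the controls at the other times. It stood at 57.5, 181.9, 126.8 and 315.9 CPM in nhr-1 RNAi libraries 1, s1, s2 and s3, against 1959.1, 1362 and 1100.5 CPM in control libraries 1, s1 and s2. Even the highest knock-down library, s3, lay well below the lowest control. The knock-down mean was 170.5 ± 109.5 CPM (SD, n = 4) and the control mean 1474 ± 440.1 CPM (SD, n = 3). The log2 fold change came to -3.11 (SE 0.634, 95% interval -4.41 to -1.81, edgeR adjusted p = 0.000704). The adjusted p ranged from 2.76e-06 to 0.0121 over the alternatives tried.

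SmedSXL_088939 (603 bases) stood at 105, 280.3, 210.2 and 382.3 CPM in nhr-1 RNAi libraries 1, s1, s2 and s3, against 1270.1, 1771.8 and 1018.2 CPM in control libraries 1, s1 and s2. Its libraries had the same order within the knock-down as those of SmedSXL_015218, with library 1 lowest and s3 highest. The log2 fold change was -2.47 (SE 0.425, 95% interval -3.34 to -1.60, edgeR adjusted p = 0.00012), and the adjusted p ranged from 1e-06 to 0.00301 over the alternatives. Over the 31 libraries compared, the log2 CPM of these 2 contigs correlated at r = 0.969. They share libraries and normalization, so this describes their course and is not independent evidence.

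The estimates for both contigs were smaller at 4 feedings and larger at 8 and 11 feedings, in comparisons made on other libraries. For SmedSXL_015218 the log2 fold change of nhr-1 RNAi over control was -0.80 at 4 feedings (edgeR adjusted p = 1), -3.11 at 6, -4.98 at 8 and -6.81 at 11. For SmedSXL_088939 it was -0.55 at 4 feedings (edgeR adjusted p = 1), -2.47 at 6, -2.92 at 8 and -3.89 at 11. The difference between 6 and 4 feedings was -2.31 (SE 0.834, edgeR adjusted p = 0.151) for SmedSXL_015218 and -1.92 (SE 0.569, edgeR adjusted p = 0.068) for SmedSXL_088939, so neither passed the threshold. At 4 feedings the knock-down libraries were spread widely, and SmedSXL_015218 stood there at 1099 ± 959.5 CPM against a control mean of 1910.0 ± 493.1 CPM (SD, n = 4 each). The controls at 11 feedings were uneven. SmedSXL_015218 stood at 5518.7 and 10140.1 CPM in those titled s2 and s3, against 1256 and 2109.9 CPM in 1 and s1. SmedSXL_088910 reached 1052973 and 1069254 CPM in s2 and s3, against 64473 and 158032 CPM in 1 and s1. The part of this in the larger estimates at 11 feedings was not tested.

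**Figure D2:**
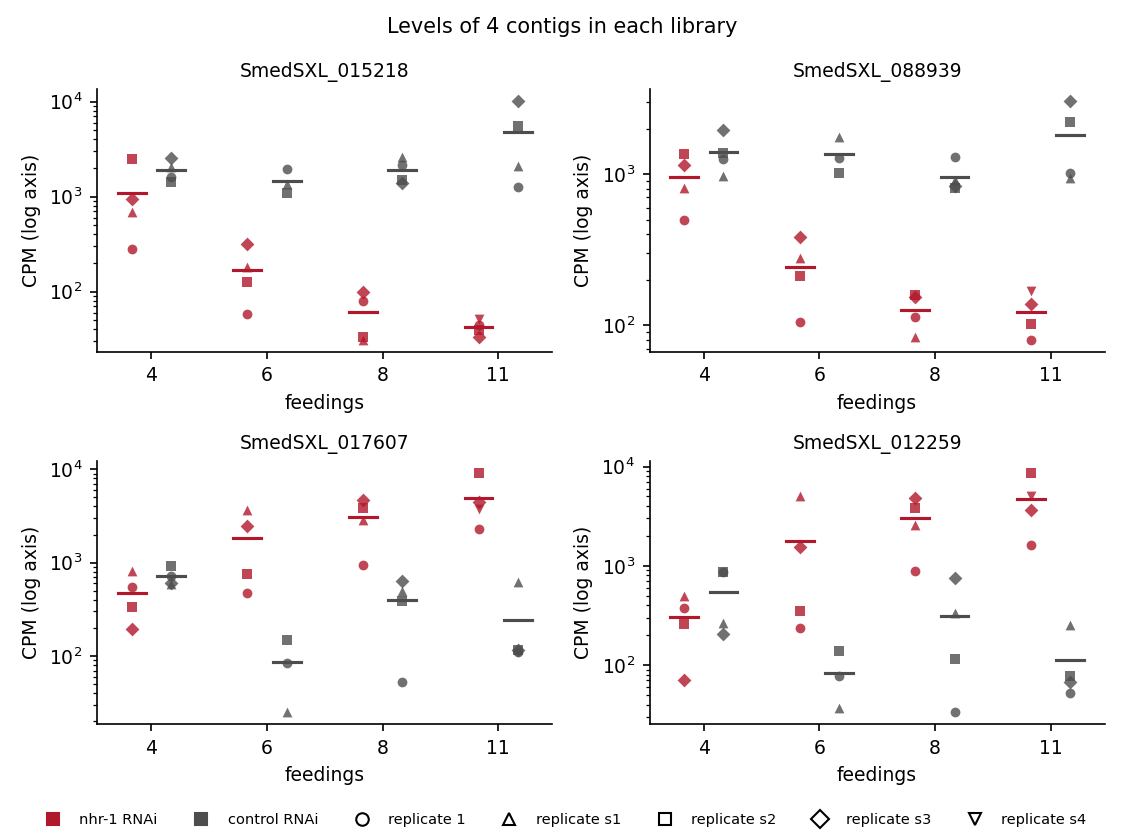
CPM on a log axis for the 4 contigs named by rule, at 4, 6, 8 and 11 feedings, with nhr-1 RNAi in red to the left of control in grey, a symbol for each replicate name and a bar at the group mean. At 6 feedings SmedSXL_015218 and SmedSXL_088939 are lower in all 4 knock-down libraries than in the 3 controls, and SmedSXL_017607 and SmedSXL_012259 are higher in all 4.

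Among the lower contigs, nhr-1 RNAi library 1 was most often the lowest of the 4 knock-down libraries, in 2111 of 3156 contigs (66.9%), and library s3 most often the highest, in 1474 (46.7%). Over all tested contigs library 1 was lowest in 35.4% and s3 highest in 36.8%. Among the controls, library 1 was the highest in 1954 of the lower contigs (61.9%), against 37.5% of all tested contigs. The name moved with composition too, as the most abundant contig took its smallest share in library 1 of each group, and the part of composition in these orders was not tested.

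The libraries at 6 feedings were also described over contigs chosen by a contrast of other libraries. Both contrasts come from 1 fit and share its filter, scaling and estimate of the spread. The comparison at 8 feedings called 3594 lower contigs (15.1% of those tested), of which 694 were more than 8-fold and 2665 were 2- to 8-fold lower there. For each library at 6 feedings, the log2 CPM of these contigs was set against the mean of the 4 controls at 4 feedings. For the 694 contigs the median difference was -3.08, -2.15, -2.47 and -1.96 in nhr-1 RNAi libraries 1, s1, s2 and s3, against 0.03, 0.05 and -0.25 in control libraries 1, s1 and s2. For the 2665 contigs it was -1.88, -1.44, -1.39 and -1.27 in the knock-down libraries, against 0.51, 0.14 and 0.21 in the controls. Every knock-down library lay below every control in both sets, with library 1 lowest and s3 highest among the knock-down. Control library 1 was the highest control for the 2665 contigs but not for the 694. Over all tested contigs the median was between -0.01 and 0.14 in the knock-down libraries and between -0.01 and 0.19 in the controls.

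**Figure D3:**
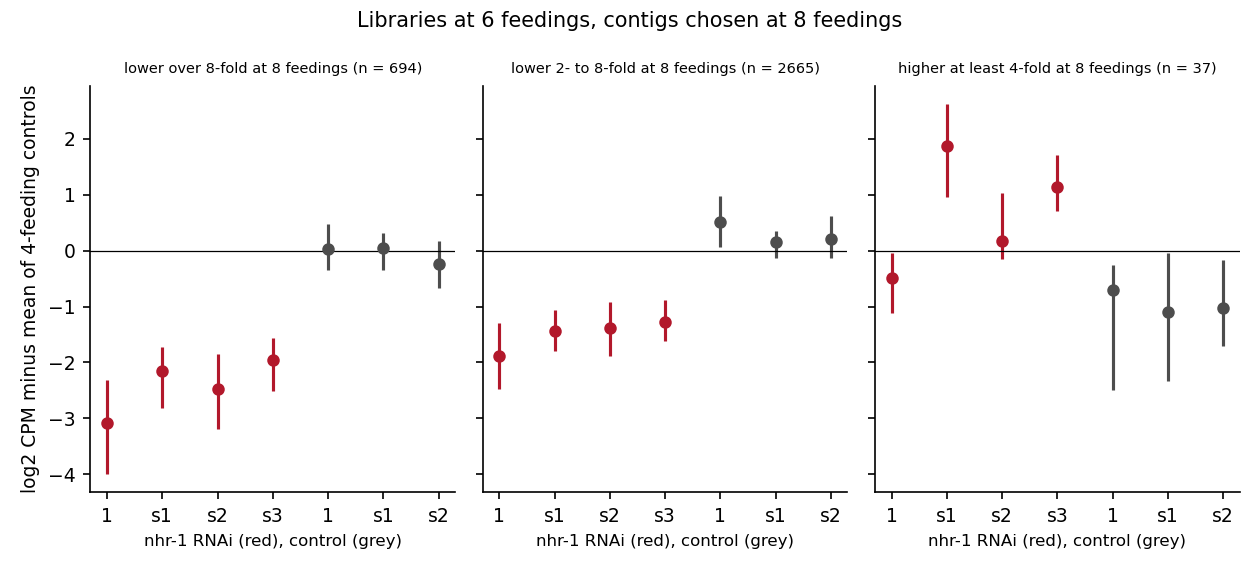
Points are medians and bars quartiles, over contigs, of log2 CPM minus the mean of the controls at 4 feedings, for each library at 6 feedings, with nhr-1 RNAi (red) left of control (grey). For the 694 and the 2665 contigs lower at 8 feedings all 4 knock-down libraries lie below all 3 controls, and for the 37 contigs at least 4-fold higher at 8 feedings knock-down libraries s1 and s3 lie highest.

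Among the contigs that passed the filter, lower ones were found at every expression level, least often among the weakest. Contigs were grouped by their mean level in the 12 controls at 4, 8 and 11 feedings. These controls are not part of the contrast at 6 feedings, but they enter its filter, scaling and estimate of the spread. The share called lower was 1.30% of 2929 contigs under 1 CPM, 11.9% of 9681 contigs at 1 to 10 CPM, 18.3% of 9779 contigs at 10 to 100 CPM and 13.0% of 1365 contigs at 100 CPM or more. The median log2 fold change of the lower contigs was -2.65, -2.14, -2.15 and -2.43 in these 4 classes. The filter on low counts used all groups, so contigs under 1 CPM in these controls can have passed through groups where they stood higher. Their share called lower therefore depends on the filter. Precision moved with level too, and the median standard error was 0.683 under 1 CPM and 0.360 at 10 to 100 CPM. The parts of filter and precision in the shares were not tested.

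By length, 12.2% of the contigs under 500 bases, 16.4% of those from 500 up to 1000 bases, 14.0% of those from 1000 up to 2000 bases and 8.34% of those of 2000 bases or more were lower. The background over all lengths was 13.3%. Higher contigs were between 0.212% and 0.559% of each length class. A contig can be a fragment of a transcript, so these lengths are not those of genes.

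Contigs with no counterpart in the second assembly were lower more often. As a counterpart served any SmedASXL contig with a total count less than 5% away and a correlation of log2 CPM over 0.95, both taken over the 24 other libraries compared. Of the 1329 contigs at 10 CPM or more without one, 389 (29.3%) were lower at 6 feedings, against 1577 of 9815 contigs (16.1%) with one. The lower contigs had a median log2 fold change of -2.13 without and -2.19 with a counterpart. The match was made on counts, not on sequence, and other libraries of the same treatments entered it, so the shares are given as a description.

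**Figure D4:**
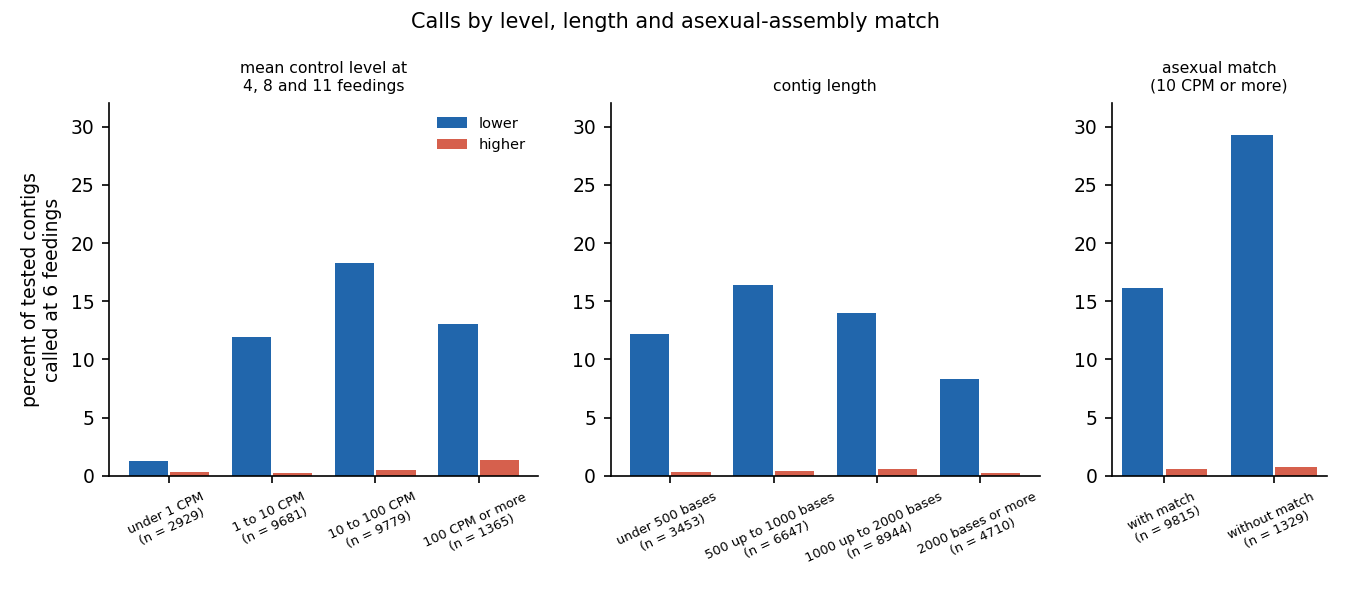
Bars give the percent of tested SmedSXL contigs called lower (blue) and higher (red) under nhr-1 RNAi at 6 feedings, by mean control level at the other times, by contig length and by asexual-assembly match among contigs at 10 CPM or more. The tallest bars are 29.3% for contigs without a match and 18.3% for contigs at 10 to 100 CPM.

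Sequences that had been deposited one by one under their own identifiers were tested in a fit over all 45762 sequences that passed the filter. Of 493 such sequences, 20 (4.06%) were lower and 5 (1.01%) were higher, against 9.54% and 0.59% of all sequences in that fit. Their log2 fold changes ran from -2.38 to 4.41. The shares among SmedSXL contigs were 12.1% lower and 0.545% higher in the same fit, and those among SmedASXL contigs 6.86% and 0.631%.

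At 4 feedings 89 contigs (0.375%) were lower and 0 were higher, and 79 of these 89 (88.8%) were also lower at 6 feedings. They made up 2.50% of the contigs lower at 6 feedings. Libraries at different times do not overlap, although all share 1 estimate of the spread. Of the 3156 contigs lower at 6 feedings, 3019 (95.7%) had a log2 fold change below 0 at 4 feedings, compared with 52.4% of all tested contigs, and their median there was -0.42. Relative to control, the median level of these contigs was 74.8% at 4 feedings, 22.2% at 6, 20.3% at 8 and 20.4% at 11.

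The difference between the effects at 6 and 4 feedings was itself called for 525 contigs by edgeR's quasi-likelihood test at an adjusted p under 0.05. In 515 of them (2.17% of those tested) the effect was more negative at 6 feedings, with a median log2 fold change of -2.50 at 6 feedings and -0.37 at 4. All 515 were among the lower contigs at 6 feedings, of which they made up 16.3%. In the other 10 (0.0421%) the effect was more positive at 6 feedings, and 9 of these were among the higher contigs. This count rested on single libraries. It was 12 without control library 1, 78 without nhr-1 RNAi library 1, 285 without control library s2 and 345 without nhr-1 RNAi library s2. Without adjustment, 3086 contigs had a p under 0.05.

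Most losses at 6 feedings were also called later. Of the 3156 contigs, 2956 (93.7%) were lower at 8 feedings and 2887 (91.5%) at 11 feedings, and 2765 were lower at all 3 of these times. In the other direction, 82.2% of the 3594 contigs lower at 8 feedings and 52.0% of the 5554 lower at 11 feedings (23.4% of those tested) were lower at 6. Only 78 contigs were called lower at 6 feedings and at none of the other times. A further 638 contigs were lower at 8 feedings and not called at 6. On the log2 scale their median was -1.12 at 6 feedings, where 622 of the 638 were below 0, and -1.85 at 8. The edgeR test of the difference between the effects at 6 and 8 feedings called 0 of 23754 contigs, with 216 (0.909%) at an unadjusted p under 0.05. Against 11 feedings it also called 0, with 2602 (11.0%) at an unadjusted p under 0.05. No other tool was run on these differences. The part of the uneven controls at 11 feedings, given above, in the calls at that time was not tested.

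The contigs with the deepest loss at 6 feedings stood apart early. For the 124 contigs more than 16-fold lower at 6 feedings, the median level relative to control was 16.5% at 4 feedings, 3.09% at 6, 1.26% at 8 and 0.39% at 11. Already at 4 feedings 49 of the 124 (39.5%) were called lower, against 0.375% of all tested contigs. As some held 0 counts in the knock-down, their median log2 fold changes with these contigs at their bound were -2.60, -4.77, -6.21 and -7.75. For the 1657 contigs 4- to 8-fold lower at 6 feedings the corresponding levels were 73.6%, 19.4%, 16.9% and 16.9%. Of them, 9 (0.543%) were called at 4 feedings, close to the share of all tested contigs. The classes were chosen at 6 feedings, so only the values at the other times are free of that choice. The 124 contigs took 0.0101% to 0.0285% of the normalized counts in knock-down libraries at 6 feedings and 0.596% to 0.893% in the controls. At 4 feedings they took 0.0701% to 0.253% in knock-down and 0.584% to 2.76% in control libraries.

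**Figure D5:**
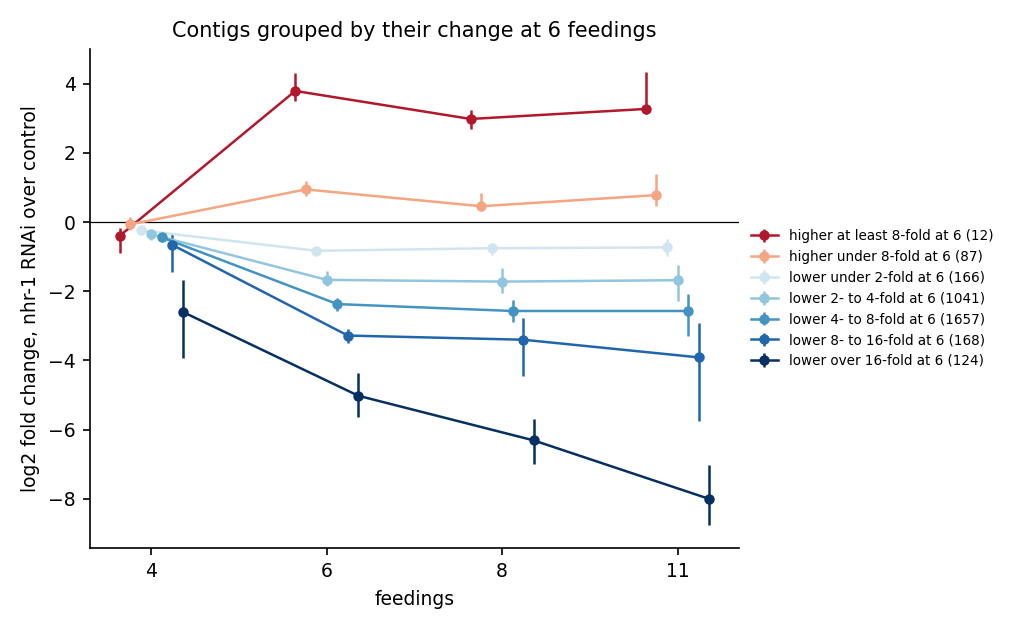
Median log2 fold change of nhr-1 RNAi over control at 4, 6, 8 and 11 feedings, with quartiles as bars, for contigs grouped by their change at 6 feedings, with the number of contigs in brackets. The 124 contigs more than 16-fold lower at 6 feedings already had a median of -2.60 at 4 feedings, whereas the 1657 contigs 4- to 8-fold lower at 6 feedings had a median of -0.44 there.

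Rises were few, and most were small. Of the 99 higher contigs, 49 rose by less than 2-fold, 31 by 2- to 4-fold, 7 by 4- to 8-fold and 12 by 8-fold or more. With same-named libraries at 6 feedings treated as pairs in a replicate block, 50 contigs were higher. Whether these libraries are true pairs is not established. The block also takes knock-down library s3, which has no same-named control, out of the contrast. The number was also 42 without nhr-1 RNAi library s1, 44 without control library 1, 55 without nhr-1 RNAi library s3 and 60 without control library s2. Other settings gave more, with 177 after adding the 7-feeding control, 254 with RLE size factors and 552 with DESeq2. Of the 99, 37 (37.4%) were also higher at 8 feedings, which was 19.9% of the 186 higher there (0.783% of those tested). In all, 60 were also higher at 11 feedings, where 1887 contigs (7.94% of those tested) were. The 87 contigs that rose less than 8-fold had medians of -0.07 at 4 feedings, 0.94 at 6, 0.46 at 8 and 0.78 at 11 on the log2 scale.

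The 12 strong rises shared a library order. In all 12 the highest of the knock-down libraries was s1, and in 11 of them s3 came next. Their summed level was 1919, 31111, 3085 and 13506 CPM in nhr-1 RNAi libraries 1, s1, s2 and s3, against 609.2, 676.2 and 1310.5 CPM in control libraries 1, s1 and s2. All knock-down sums lay above all control sums. Contig by contig, all knock-down libraries lay above all controls in 9 of the 12, against 4.40% of all tested contigs. The 12 were chosen by their rise on these same 7 libraries, so this separation largely follows from the choice. The sums differed far more among the knock-down libraries than between the lowest of them and the nearest control. The median SD of log2 CPM within the knock-down was 1.90 for these contigs, against 0.443 for all tested contigs. Libraries s1 and s3 also had the largest shares on SmedSXL_088910 among the knock-down libraries, at 19% and 22.8%, with s2 close to s1 at 18.4%. Control library s1 had the largest share of all, at 25.9%, and a summed level of 676.2 CPM. The part of composition in the summed levels was not tested. Without nhr-1 RNAi library s1 only 3 contigs were called at 8-fold or more, with the replicate block 2, and without control library s2 19.

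Of these 12 contigs, 11 were also called higher at 8 feedings and 10 at 11 feedings, but 0 at 4 feedings. Their lengths ran from 208 to 1486 bases. Over the 31 libraries the log2 CPM of the 66 pairs among them correlated at r between 0.472 and 1.00, with a median of 0.935. How many genes the 12 contigs stand for is uncertain, since several contigs can belong to 1 transcript. Over the whole assembly, near-identical count profiles (total within 5%, r over 0.99) were found for 117 (3.71%) of the lower, 3 (3.03%) of the higher and 355 (1.49%) of all tested contigs.

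For these contigs the controls differed between times as well. Summed over the 12 contigs, the median control library held 5226 CPM at 4 feedings, 676.2 CPM at 6, 2196 CPM at 8 and 2347 CPM at 11, and the median knock-down library held 3652, 8295, 19290.4 and 27301 CPM at these times. The 3 controls at 6 feedings, at 609.2 to 1310.5 CPM, lay below all 4 controls at 4 feedings, at 2926 to 7776 CPM. The 4 knock-down libraries at 6 feedings, at 1919 to 31111 CPM, overlapped with the controls at 4 feedings. The rise at 6 feedings was thus measured against controls that stood lower than those of 4 feedings. The contigs were chosen by their rise against these 3 controls, which favours low values in them. The part of this choice in the low controls was not tested.

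The 2 contigs that gained most reads, SmedSXL_017607 and SmedSXL_012259, were chosen by the same rule and showed this course. SmedSXL_017607 (1286 bases) stood at 475, 3647.3, 761.7 and 2463.1 CPM in nhr-1 RNAi libraries 1, s1, s2 and s3, against 85.3, 25 and 149.6 CPM in control libraries 1, s1 and s2. The groups did not overlap, which the rule requires, and the lowest knock-down value was that of library 1. The log2 fold change was 4.41 (SE 0.913, 95% interval 2.53 to 6.28, edgeR adjusted p = 0.000835). It was 3.79 without nhr-1 RNAi library s1, 5.06 without control library s2 and 3.70 with the replicate block, and the adjusted p ranged from 7.16e-08 to 0.014 over the alternatives. At the other times SmedSXL_017607 averaged 470.2 ± 265.5 CPM against 713.4 ± 157.2 CPM in the control at 4 feedings, 3098 ± 1619 CPM against 396.1 ± 250.0 CPM at 8 and 4871 ± 2910.1 CPM against 241.2 ± 253.3 CPM at 11 (SD, n = 4 each).

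SmedSXL_012259 (914 bases) stood at 237.7, 5026, 352.3 and 1534.5 CPM in nhr-1 RNAi libraries 1, s1, s2 and s3, against 77.0, 36.5 and 137.9 CPM in control libraries 1, s1 and s2. Library s1 was the highest by a wide margin, and library 1 the lowest. The log2 fold change was 4.41 (SE 1.10, 95% interval 2.15 to 6.68, edgeR adjusted p = 0.00496), and 3.04 without library s1 (edgeR adjusted p = 0.0381). With the replicate block it was 2.89 and no longer called (edgeR adjusted p = 0.148), and over the alternatives the adjusted p ranged from 7.35e-06 to 0.148. For both contigs the effect at 6 feedings exceeded that at 4 feedings, by 5.01 on the log2 scale for SmedSXL_017607 (SE 1.12, edgeR adjusted p = 0.0201) and by 5.27 for SmedSXL_012259 (SE 1.36, edgeR adjusted p = 0.037). Both were chosen by their rise at 6 feedings, which favours a larger effect there, so these differences are no separate support. The log2 CPM of the 2 contigs correlated at r = 0.967 over the 31 libraries.

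The comparison was also made within the libraries named with s, where 1985 contigs (8.39% of 23668 tested) were lower and 47 (0.199%) were higher. The libraries named 1 are a single pair and allow no test of their own. Of the 1976 lower contigs that could be followed in that pair, 1975 were lower in nhr-1 RNAi library 1 than in control library 1, against 44.7% of all tested contigs, and their median log2 difference was -2.97. Of the 47 higher contigs, 44 were higher in that pair, against 55.3% of all tested contigs, with a median log2 difference of 0.64.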

How the data were processed

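Poly(A) RNA of whole animals was sequenced. The authors deposited 1 table of raw read counts for 177783 reference sequences, and these counts were used as deposited. Bowtie2 is named in the submitters' processing notes, and for the counting program, the strand setting and the versions the sources used here give no information. The row that names no sequence held 0 counts. All columns matched a library title, and 0 were unused. Lengths are per the file headers.

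Counts on SmedSXL contigs were fitted in edgeR 4.0.16 (R 4.3.3, limma 3.58.1) with TMM factors, filterByExpr (minimum count 10, minimum total 15) and 1 mean per group over 31 libraries in 8 groups, which share 1 estimate of the spread. The factors ranged from 0.434 to 1.27, and lowest was a control at 11 feedings. CPM values use them. The quasi-likelihood test was adjusted by Benjamini-Hochberg over 23754 contigs, with calls under 0.05. Standard errors are the size of the log2 fold change over the root of its F statistic. DESeq2 1.42.0 and limma voom were alternatives. Medians per library use log2 CPM with a prior count of 2. Intervals and the limit of 3 counts for a 0 cover counting error only where they rest on counts.

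The procedure was tested on simulated data. Same-named libraries at 6 feedings deviated together from their group means, at r = 0.548 for libraries 1, 0.504 for s1 and 0.222 for s2. Differently named libraries reached r = 0.594, for nhr-1 RNAi library 1 with control library s2. Knock-down library s3 and control library s1 reached 0.582. The correlations therefore do not establish the names as pairs, and the replicate block served only as an alternative. Library s3 of the knock-down has no same-named control, so in the block it has a term of its own and adds nothing to the contrast.

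Named contigs are the 2 with the largest fall and the 2 with the largest rise in mean CPM among those called, changed at least 2-fold and without overlap, leaving out a contig that correlated at r over 0.99 with one already chosen. The most abundant contig was added. The comparison, its contigs and its tests were chosen with earlier results of these data known. The main alternatives were other scalings, filters and tools, other sets of libraries, the replicate block and leaving out each of the 7 libraries.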

Additional observations from a re-analysis of the deposited data

Results flagged for a closer look

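The effect of nhr-1 RNAi differed between 6 and 4 feedings by the edgeR test of that difference for 525 contigs. Among the contigs named, the effect at 6 feedings was higher by 5.01 on the log2 scale for SmedSXL_017607 (edgeR adjusted p = 0.0201) and by 5.27 for SmedSXL_012259 (edgeR adjusted p = 0.037). For both contigs the rule that chose them fixed the order of the groups at 6 feedings and favours a larger effect there.

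One control library at 11 feedings, titled s1, lay far from the other 3 for both of these contigs. It held 621.2 CPM of SmedSXL_017607, with the others at 111.2 to 116.6 CPM, and 256 CPM of SmedSXL_012259, with the others at 51.8 to 78.0 CPM. Its description gives the name s2 instead, so the replicate name is in doubt, while both fields place it among the controls at 11 feedings. These were 2 of 43 groups of 4 values examined, where chance marks about 1 in 20.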

How the results depend on the processing

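The 3156 lower contigs stayed within 1.5 times that number under all alternatives run but the libraries named s alone (1985), and leaving out 1 library gave 2446 to 3121. With the replicate block they were 2866. Losses beyond 2-fold by glmTreat (1658) were 290 with the libraries named s alone, and leaving out 1 library gave 822 to 1731. The number of higher contigs (99) was 254 with RLE size factors, 38 with total counts alone, 552 with DESeq2, 49 with no filter, 39 with the 7 libraries alone, 47 with the libraries named s alone, 177 with the 7-feeding control added and 50 with the replicate block, and leaving out 1 library gave 42 to 110. Scaling moved the median log2 fold change of all contigs, which was 0.10, to 0.21 with RLE and -0.01 with total counts. The number whose effect differed between 6 and 4 feedings (525) came to 240 with no filter, 269 with all reference sequences fitted and 318 with total counts alone, and leaving out 1 library gave 12 to 692. The cause of these shifts was not tested. Contigs at least 8-fold higher (12) numbered 4 with limma voom, 25 with no filter and 7 with the 7 libraries alone, in counts added after seeing the data, while those over 16-fold lower (124) stayed at 97 to 178. Of 76 alternative values for the 4 named contigs, 75 kept their direction and call, the exception being SmedSXL_012259 with the replicate block, at 2.89. The block changed no other call among these contigs. With a median standard error of 0.46, 166 lower and 49 higher contigs were called at changes under 2-fold, which is the range where depth and spread limit the calls.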
